A study of Mus musculus with 9 samples.

Results

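The clustered histone genes of the mouse were examined in libraries of male germ cells that had lost ClpP or ClpX. They were the protein-coding rows of the gene table whose symbols begin with Hist1h, Hist2h, Hist3h or Hist4h. There were 67 such genes among 22046 protein-coding rows and 54532 rows in all, and 3 further rows with these symbols are pseudogenes. They encode linker histone H1 (6 genes), H2A (18), H2B (18), H3 (12) and H4 (13). The Hist1 cluster on chromosome 13 holds 54 of them, Hist2 on chromosome 3 holds 10, Hist3 on chromosome 11 holds 2 and Hist4 on chromosome 6 holds 1.

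The 9 libraries, labelled PD 35 and titled spermatocytes, fall in 3 groups of 3. The controls are wild type by their genotype label, and the knockouts lack Clpp or Clpx in germ cells through Stra8-Cre. This Cre is active from the spermatogonial stage and not in the somatic cells of the testis. ClpP degrades proteins in the mitochondrial matrix and ClpX, an ATPase, unfolds and delivers them; the study asks how their loss affects mitochondria and spermatogenesis. How the cells were isolated, any batch and the source of the replicates are not in the labels, so the p-values reflect nothing but variation among these libraries, which may be technical, and both knockouts are set against the same 3 controls.

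Replication-linked histone genes are switched on together in S phase, when NPAT and its partners gather at the clusters, and they supply the histones that package new DNA. Their mRNAs are unusual in ending after a short stem-loop bound by SLBP and not in a poly(A) tail. Some clustered genes also make polyadenylated mRNAs, mostly in cells that no longer divide. In the testis, spermatocytes use the linker histone H1t and the core histones TH2A and TH2B (genes Hist1h1t, Hist1h2aa and Hist1h2ba) beside the ordinary forms, and spermatids later exchange most histones for transition proteins and protamines.

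The stem-loop is the feature that sets these transcripts apart, so it is shown first for 8 of the genes with the highest values that carry it in their annotated transcripts. The search was for GG, any 2 bases, CT, a loop of T, any base, T and any base, then AG, any 2 bases and CC, with the first 6 bases pairing with the last 6. In the lines below the stem-loop is in capitals, with 5 bases on either side, in the sense of the mRNA and in DNA letters, from GENCODE release M21 on GRCm38.
Hist1h2bp (H2B, chr13:21787918-21787943, plus strand): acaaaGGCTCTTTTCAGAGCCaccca
Hist1h3a (H3, chr13:23761885-23761910, minus strand): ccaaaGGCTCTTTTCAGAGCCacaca
Hist1h4a (H4, chr13:23760795-23760820, minus strand): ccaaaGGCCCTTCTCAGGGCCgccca
Hist1h4h (H4, chr13:23531453-23531478, plus strand): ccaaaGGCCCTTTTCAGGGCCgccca
Hist1h1c (H1, chr13:23739507-23739532, plus strand): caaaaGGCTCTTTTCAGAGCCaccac
Hist1h1t (testis H1, chr13:23696520-23696545, plus strand): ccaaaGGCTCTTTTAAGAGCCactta
Hist2h2ac (H2A, chr3:96220413-96220438, minus strand): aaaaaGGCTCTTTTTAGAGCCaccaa
Hist3h2a (H2A, chr11:58955167-58955192, plus strand): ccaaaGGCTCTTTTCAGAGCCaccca

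In their protein-coding transcripts, the stem-loop was present in 46 of the 67 genes (68.7%). Counted by transcript, it was in 48 of their 72 (66.7%), against 17 of 58725 protein-coding transcripts of other genes (0.0289%). It came in 8 forms. The form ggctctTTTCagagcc, with the loop in capitals, was in 26 genes, and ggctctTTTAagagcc, the form of Hist1h1t, was in 6. The stem ggccct was found in H4 genes only among the 67; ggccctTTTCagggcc was in 7 of them, and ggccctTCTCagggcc was in Hist1h4a alone. In 23 genes the annotated transcripts ended within 100 bases after the stem-loop, and in 23 at least 1 ran further. Past it, Hist1h3a ran on for 37 bases and Hist1h4a for 108, while Hist1h1t ran on for 185 and Hist1h1c for 840. Of the 21 genes in which no stem-loop was found, 13 have models that end at the stop codon, Hist1h2ba and Hist1h2aa among them, so the window searched does not hold the sequence after it. AATAAA, the usual signal for poly(A) addition, stood in the last 50 bases of a protein-coding transcript in 14 genes, including Hist1h4a, Hist1h1c, Hist1h1t, Hist2h2be and Hist3h2a. Hist1h2bp has both kinds of annotated transcript, 1 of 469 bases in a single exon with the stem-loop and 1 of 621 bases in 2 exons with AATAAA and no stem-loop.

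The 150 bases upstream of the RefSeq start are shown for the 3 genes with called changes for which this window could be read. They are also shown for the divergent testis pair Hist1h2ba and Hist1h2aa, whose starts in the gene table lie 306 bases apart. They come from RefSeq on GRCm38.p6 and read 5′ to 3′ towards each gene. Capitals mark TATAAA and CCAAT on either strand, so that CCAAT on the other strand appears as ATTGG.
Hist1h2bp (chr13:21787338-21787487, plus strand): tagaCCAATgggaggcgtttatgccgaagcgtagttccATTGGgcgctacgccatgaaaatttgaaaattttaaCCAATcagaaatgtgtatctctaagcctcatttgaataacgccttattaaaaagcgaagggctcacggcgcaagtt
Hist1h4a (chr13:23761250-23761399, minus strand): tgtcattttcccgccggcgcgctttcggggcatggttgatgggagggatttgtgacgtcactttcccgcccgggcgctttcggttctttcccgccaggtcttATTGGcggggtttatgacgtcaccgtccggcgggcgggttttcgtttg
Hist1h1c (chr13:23738657-23738806, plus strand): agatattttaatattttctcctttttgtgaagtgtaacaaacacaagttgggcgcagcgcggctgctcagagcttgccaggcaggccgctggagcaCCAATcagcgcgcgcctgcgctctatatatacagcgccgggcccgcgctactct
Hist1h2ba (chr13:23934157-23934306, minus strand): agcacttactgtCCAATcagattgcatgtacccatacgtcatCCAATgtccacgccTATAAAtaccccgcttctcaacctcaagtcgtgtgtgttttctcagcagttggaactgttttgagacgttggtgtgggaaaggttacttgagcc
Hist1h2aa (chr13:23934287-23934436, plus strand): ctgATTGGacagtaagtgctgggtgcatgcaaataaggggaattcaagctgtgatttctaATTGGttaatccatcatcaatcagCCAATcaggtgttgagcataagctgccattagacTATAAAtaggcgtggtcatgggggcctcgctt

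All 67 genes were matched to RefSeq by name, and 62 had such a window. CCAAT was in 82.3% of the 62 windows, against 24.5% of 32851 windows over all genes, and TATAAA was in 38.7% against 7.57%, each counted on either strand. Both testis genes hold TATAAA, beginning 94 bases before the RefSeq start in Hist1h2ba and 32 in Hist1h2aa. These starts are not alike. The model of Hist1h2ba begins at its start codon, so the 94 bases are not counted from a start of transcription. The RefSeq start of Hist1h2aa lies 25 bases from its start in the gene table. That of Hist1h2bp lies 27 bases inside the gene as the gene table gives it, so the last 27 bases of its window are within that gene. The windows of the pair overlap at their far ends, so the CCAAT nearest to that end is the same site in both. A match is a description of the letters and not evidence that a factor binds there.

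Most clustered histone genes were at or near the floor of detection in every group. FPKM is a read count scaled to gene length and library size, and the median over the 67 genes of their mean FPKM over the 9 libraries was 0.169. The mean was under 0.5 for 47 genes, and 17 genes reached the mean of 1 required for testing. Just inside were Hist1h4i (1.014), Hist1h4c (1.03) and Hist1h1a (1.10), and just outside were Hist1h2ao (0.742), Hist2h2ab (0.558) and Hist3h2ba (0.503). The 17 genes comprised 3 H1, 3 H2A, 5 H2B, 2 H3 and 4 H4 genes. No read was counted in any library for Hist2h2aa1, Hist2h2aa2, Hist2h2bb, Hist2h3b and Hist2h3c1, where 3 reads would have given between 0.0939 and 0.578 FPKM, depending on gene and library. All stretches of 75 bases in the transcripts of these 5 genes also occur in other genes' transcripts, and each of the 5 overlaps another annotated gene, so a count of 0 need not mean that the RNA was absent.

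**Figure D1:**
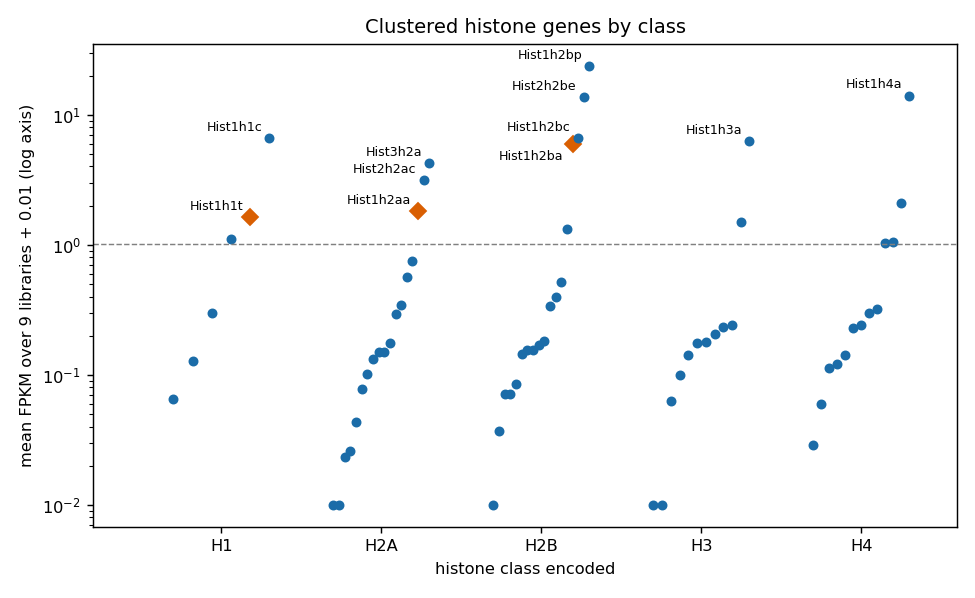
Mean FPKM over the 9 libraries plus 0.01, on a log axis, for each of the 67 clustered histone genes by the histone class encoded; orange diamonds are the testis forms, other points the remaining genes, and the dashed line is the mean FPKM of 1 required for testing. In every class 1 or a few genes stand above the line, led by Hist1h2bp at 23.7, and the 5 points at the bottom are the genes with no read.

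The reads were few and concentrated. Between 1531 and 2012 reads per library fell on the 67 genes, of 14334436 to 17021685 gene reads, and 45 to 51 of the genes had a read. Hist1h2bp, Hist1h4a and Hist2h2be together held 38.3% to 57.1% of the summed FPKM of all 67 genes. The labels name an mRNA-seq kit but not how mRNA was selected, and poly(A) selection would leave out tail-less histone mRNAs; its part in these low levels was not tested. Of the 14 genes with AATAAA at the end of a protein-coding transcript 6 were tested, against 11 of the 53 others.

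The genes resemble one another in sequence and some overlap other annotated genes, which limits how reads can be assigned. More than 50% of the 75-base stretches were shared with another gene's transcripts in 31 of the 67 genes, and 8 have a coding sequence identical to that of another clustered gene. Matches in any annotated gene on either strand were counted, overlapping genes included, so the shares mix likeness with overlap. The median share was 60.9% in the 50 genes that were not tested and 30.6% in the 17 that were. Among the genes with called changes the share was 41.1% for Hist1h2bp, 38.5% for Hist1h3a, 35.5% for Hist1h4a and 6.66% for Hist1h1c, and it was 0 for Hist2h2be. How reads that match several genes were counted is not given in the sources used here, so values of the genes with shared stretches are uncertain.

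Neighbours within a cluster were measured at very different levels. There are 13 pairs of clustered histone genes that are transcribed away from each other from starts under 1000 bases apart, and both genes were tested in 2 of them. Hist1h2bp averaged 23.7 FPKM over the 9 libraries while Hist1h2an, whose start is 243 bases away, averaged 0.121. Hist1h2bc averaged 6.62 and its partner Hist1h2ac 0.0912. In the testis pair, Hist1h2ba averaged 5.97 and Hist1h2aa 1.81, and in the Hist2 cluster Hist2h2be averaged 13.7 and Hist2h2ac 3.13. Hist1h4a and Hist1h3a are also neighbours, with 622 bases between them and both on the minus strand, and Hist1h1a follows 1279 bases further on.

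**Figure D2:**
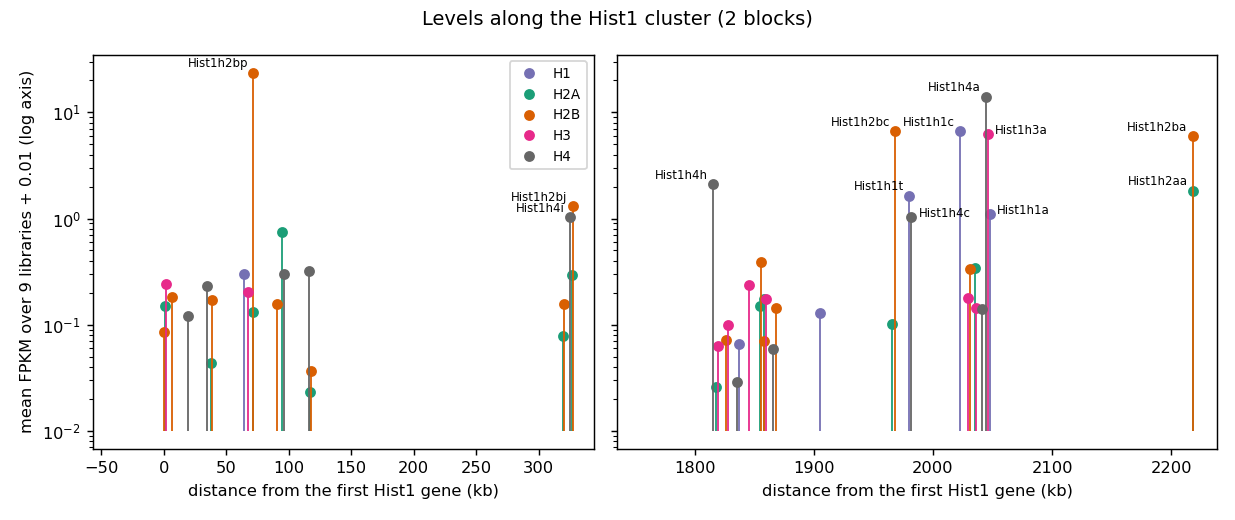
Mean FPKM over the 9 libraries plus 0.01, on a log axis, against the distance in kilobases from the first gene of the Hist1 cluster on chromosome 13. Each stem is 1 of 54 genes, coloured by histone class. The stretch between the 2 panels, which holds none of these 54 genes, is left out. Genes above a mean of 1 are named; Hist1h2bp, at 23.7, stands among neighbours under 1, and Hist1h4a, Hist1h3a and Hist1h1a stand side by side.

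The libraries differed in more than the target gene. Clpp averaged 9.06 ± 0.52 FPKM in the controls and 5.002 ± 1.24 in ClpP cKO (SD, n = 3 each), and Clpx averaged 56.5 ± 2.41 in the controls and 13.4 ± 2.14 in ClpX cKO. The partner gene differed too, with Clpx lower in ClpP cKO, at 37.5 ± 2.42, and Clpp higher in ClpX cKO, at 13.1 ± 0.85. Of 12 elongating spermatid markers 12 fell in both knockouts, with their summed FPKM at 8251 to 18032 in control libraries, 4775 to 5678 in ClpP cKO and 1756 to 2674 in ClpX cKO. Of 10 Sertoli markers 10 rose in both, with sums of 430 to 449, 625 to 690 and 803 to 1108 FPKM in the same order. Of 10 spermatogonial markers 7 rose in ClpP cKO, and 8 rose and 1 fell in ClpX cKO, with sums of 111 to 118, 151 to 171 and 174 to 220 FPKM. Of 10 pachytene and diplotene spermatocyte markers 7 fell in ClpP cKO, and 7 fell and 1 rose in ClpX cKO, with sums of 914 to 953, 687 to 731 and 551 to 708 FPKM. Of 10 round spermatid markers 9 fell and 1 rose in both. In early meiotic prophase 7 of 10 markers rose and 1 fell in ClpP cKO, and 6 rose and 1 fell in ClpX cKO. The sums of both knockouts overlapped the controls. Among 7 macrophage and immune markers tested 3 rose in ClpP cKO and 7 in ClpX cKO. For 7 peritubular and stromal markers the counts were 3 and 6. No Leydig, endothelial or erythroid marker was called in ClpP cKO. In ClpX cKO 2 of 7 Leydig and 1 of 2 endothelial markers tested rose, and 1 of 4 erythroid markers fell. No marker of any of the 11 cell types examined was at 0 in all libraries. The third control and the first ClpX cKO library stood apart in the spermatid sum, at 8251 FPKM against 17098 and 18032 in the other controls and at 2674 against 1756 and 1829. In bulk samples fewer cells of a type and less RNA per cell cannot be told apart, and the part of these shifts in the values below was not tested.

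Of the 17 genes tested, 3 fell and 1 rose in ClpP cKO against control. Among all 17266 genes tested, 24.0% fell and 20.7% rose, so the shares of clustered histone genes called, 17.6% and 5.88%, were not above those of genes at large. In ClpX cKO against control 4 fell (23.5%) and 1 rose, where 33.5% and 32.1% of all genes did. The median log2 change of the 17 genes was -0.13 in ClpP cKO and -0.24 in ClpX cKO, beside 0.01 and -0.00 over all genes tested. Calls are at an adjusted p under 0.05 in limma, and log2 changes are differences of mean log2(FPKM + 1), a scale that understates the change of low genes. The genes that fell were core histone genes, Hist1h2bp, Hist1h4a and Hist1h3a in both comparisons and Hist2h2be in ClpX cKO; the gene that rose in both was the linker histone gene Hist1h1c. All 5 ClpX cKO calls were kept under each of 19 alternatives, among them the fit without the third control and the first ClpX cKO library. The sums of elongating spermatid markers were lower in the same order of groups as the core histone genes that fell, and their part in those changes was not tested.

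**Figure D3:**
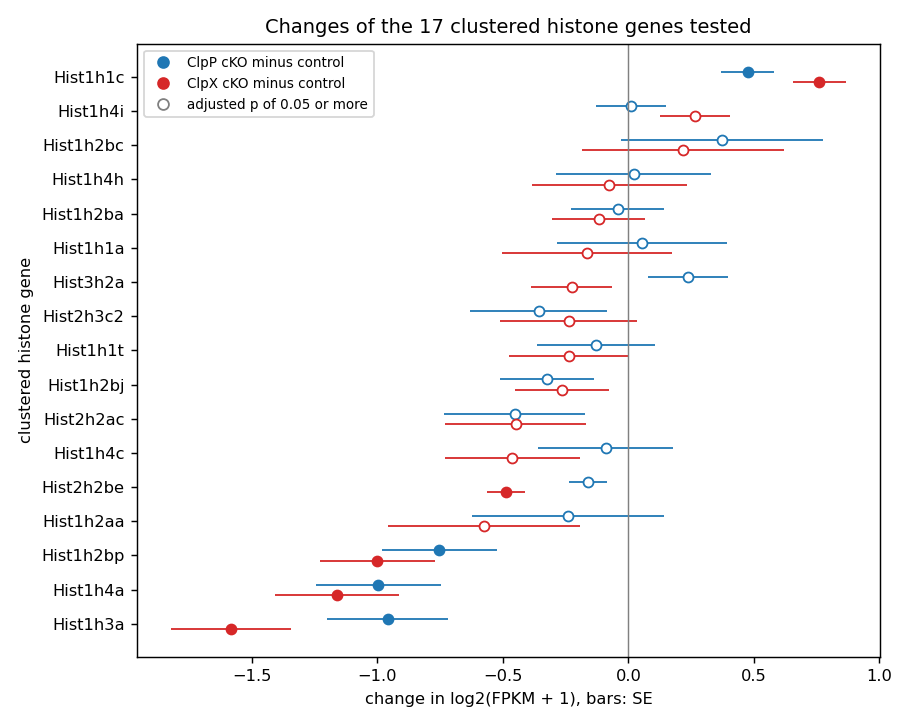
Change in log2(FPKM + 1) against control, with its SE, of the 17 clustered histone genes tested, in ClpP cKO (blue) and ClpX cKO (red); filled points have an adjusted p under 0.05 over all genes. Hist1h1c lies furthest to the right in both, at 0.47 and 0.76, and Hist1h3a, Hist1h4a and Hist1h2bp lie furthest to the left in both.

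Hist1h2bp, an H2B gene at chr13:21787461-21789213, had the highest FPKM of the 67 on average. Its FPKM was 34.2, 33.0 and 34.6 in control libraries, 26.3, 16.02 and 18.2 in ClpP cKO, and 22.3, 11.7 and 17.1 in ClpX cKO. All 6 knockout libraries lay below all 3 controls, and the 2 knockouts overlapped each other. The log2 change was -0.75 ± 0.23 (SE) in ClpP cKO (adjusted p 0.029) and -1.0 ± 0.23 in ClpX cKO (0.0049). The ClpP cKO call was lost, with an adjusted p of up to 0.0994, under 8 of 19 alternatives, among them scaling by each library's own total of gene reads (-0.57, adjusted p 0.059) and leaving out any single control, the second ClpP cKO library or the third.

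Hist1h4a, an H4 gene at chr13:23760692-23761230, came second. It measured 23.5, 25.3 and 17.3 FPKM in control libraries, 11.5, 7.15 and 13.5 in ClpP cKO, and 11.8, 9.33 and 6.96 in ClpX cKO. Again no knockout library reached a control. The gene changed by -0.996 ± 0.25 (SE) on the log2 scale in ClpP cKO (adjusted p 0.016) and by -1.16 ± 0.25 in ClpX cKO (0.0036). Without the first control or without the second, the ClpP cKO change was no longer called (adjusted p 0.0515 and 0.0505).

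Hist1h3a, an H3 gene at chr13:23761853-23762386, had the largest called change of the 17 in ClpX cKO. Its FPKM was 9.81, 14.0 and 8.38 in control libraries, 7.60, 3.97 and 3.83 in ClpP cKO, and 3.11, 2.67 and 2.74 in ClpX cKO. The 3 groups did not overlap, with the first ClpP cKO library close to the lowest control. The log2 change was -0.96 ± 0.24 (SE) in ClpP cKO (adjusted p 0.016) and -1.58 ± 0.24 in ClpX cKO (7.6e-04), and the mean in ClpX cKO was 0.265 times the control mean. The ClpP cKO call was lost without the second ClpP cKO library or the third (adjusted p 0.0578 and 0.0557). These values rest on 25 to 28 reads in the ClpX cKO libraries and 61 to 114 in the controls.

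Hist2h2be, an H2B gene at chr3:96221119-96223738 without shared stretches, had the most reads, 450 to 669 per library. It measured 15.7, 16.7 and 15.4 FPKM in control libraries, 13.5, 14.99 and 13.9 in ClpP cKO, and 11.6, 11.6 and 10.1 in ClpX cKO. On this scale the groups formed 3 steps without overlap. The ClpX cKO change was -0.49 ± 0.08 (SE; adjusted p 8.4e-04) and the ClpP cKO change -0.16 ± 0.08, which did not pass (adjusted p 0.11). Scaled by each library's own total of gene reads, ClpP cKO overlapped the controls (14.1, 15.7 and 14.5 against 14.28, 15.001 and 14.6 FPKM) and ClpX cKO stayed below both, with a change of -0.28 that was still called.

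Hist1h1c, a linker histone gene at chr13:23738808-23740367 that is also expressed outside S phase, was the one that rose. Its FPKM was 5.37, 4.49 and 3.997 in control libraries, 6.80, 7.29 and 6.25 in ClpP cKO, and 8.98, 8.79 and 7.70 in ClpX cKO. Every ClpP cKO library was above every control, and every ClpX cKO library above every ClpP cKO library. The log2 change was 0.47 ± 0.11 (SE) in ClpP cKO (adjusted p 0.012) and 0.76 ± 0.11 in ClpX cKO (5.8e-04), and it was called in both comparisons under all 19 alternatives tried. The Sertoli and spermatogonial marker sums given above both increased in the same order of groups, and their part in this change was not tested.

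**Figure D4:**
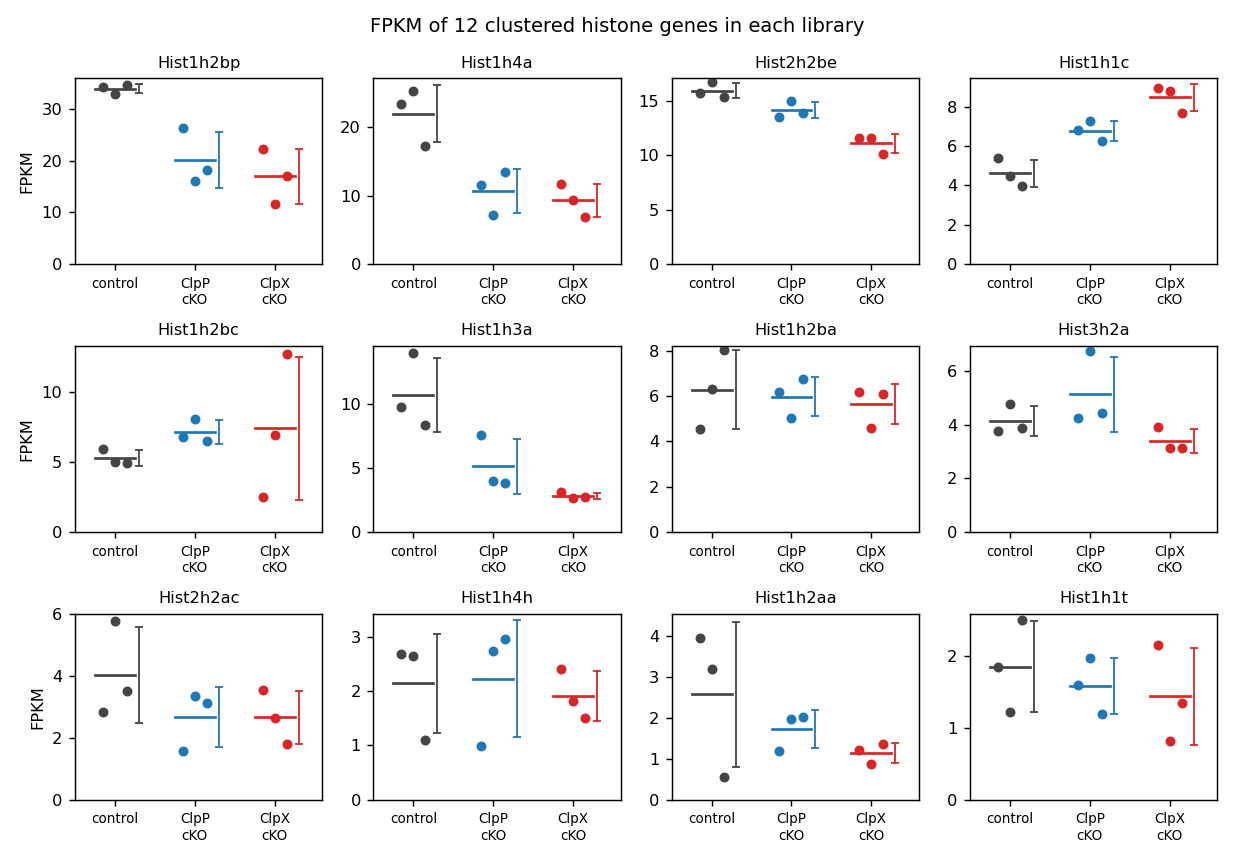
FPKM of 12 clustered histone genes in each library, by group, in order of mean level; points are libraries, horizontal lines group means and bars the SD over 3 libraries, each panel with its own axis from 0. Hist1h2bp, Hist1h4a and Hist1h3a are lower in all 6 knockout libraries than in the controls, Hist1h1c is higher, and the testis forms Hist1h2ba, Hist1h2aa and Hist1h1t overlap between groups.

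None of the 3 testis forms passed the test in any comparison. Hist1h2ba, the TH2B gene at chr13:23933773-23934156, measured 4.55, 6.31 and 8.02 FPKM in control libraries, 6.19, 5.02 and 6.74 in ClpP cKO, and 6.18, 4.61 and 6.10 in ClpX cKO, and all groups overlapped (log2 changes -0.04 ± 0.19 and -0.12 ± 0.19, SE; adjusted p 0.86 and 0.59). Hist1h1t, the H1t gene at chr13:23695814-23696725, measured 1.84, 1.22 and 2.49 FPKM in control libraries, 1.59, 1.97 and 1.19 in ClpP cKO, and 2.15, 0.814 and 1.35 in ClpX cKO. Its log2 changes, -0.13 ± 0.24 and -0.24 ± 0.24 (SE; adjusted p 0.67 and 0.40), did not pass, and the 3 groups overlapped. These values rest on 13 to 33 reads per library.

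Hist1h2aa, the TH2A gene at chr13:23934462-23934851, turned on 1 library. It measured 3.94, 3.19 and 0.564 FPKM in control libraries, from 22, 19 and 3 reads, then 1.19, 1.98 and 2.01 in ClpP cKO and 1.22, 0.879 and 1.35 in ClpX cKO. The third control lay below all 6 knockout libraries and the other controls above all of them. The log2 changes were -0.24 ± 0.38 and -0.57 ± 0.38 (SE; adjusted p 0.62 and 0.21). Without the third control they were -0.75 (adjusted p 0.021) and -1.088 (0.0021). The gene overlaps the annotated gene Gm44344.

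Of the remaining genes named for their level, none passed against control. Hist1h2bc, an H2B gene, was at 5.92, 4.98 and 4.95 FPKM in control libraries, at 6.82, 8.12 and 6.51 in ClpP cKO and then 2.52, 6.97 and 12.8 in ClpX cKO. All ClpP cKO libraries were above the controls, yet the spread within ClpX cKO enters the shared error, and the change of 0.37 ± 0.40 (SE) did not pass (adjusted p 0.46). In a fit of the 6 libraries alone the same change was called (SE 0.10, adjusted p 0.027), and without the first ClpX cKO library the ClpX cKO change was 0.74 (adjusted p 0.017). Hist3h2a, an H2A gene that overlaps Trim17 and Gm44313, was at 3.77, 4.79 and 3.86 FPKM in control libraries, 4.24, 6.74 and 4.43 in ClpP cKO, and 3.93, 3.11 and 3.14 in ClpX cKO, with log2 changes of 0.24 ± 0.16 and -0.23 ± 0.16. Hist2h2ac, an H2A gene that overlaps Gm44492, was at 2.82, 5.79 and 3.53 FPKM in control libraries, 1.56, 3.34 and 3.13 in ClpP cKO, and 3.54, 2.64 and 1.80 in ClpX cKO. Hist1h4h, an H4 gene, was at 2.67, 2.65 and 1.093 FPKM in control libraries, 0.986, 2.73 and 2.95 in ClpP cKO, and 2.40, 1.82 and 1.496 in ClpX cKO. In Hist2h2ac and Hist1h4h the 3 groups overlapped; in Hist3h2a both knockouts overlapped the controls, and the ClpX cKO libraries lay below the ClpP cKO libraries. The other 5 genes tested, Hist1h1a, Hist1h2bj, Hist1h4c, Hist1h4i and Hist2h3c2, lay between 0.198 and 2.41 FPKM and did not pass either.

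The 50 genes under the filter added little RNA. Their summed FPKM was 6.11 to 9.96 per library, from 86 to 127 reads. Without the filter, 45 of them could be tested, and none was called in ClpP cKO, while in ClpX cKO Hist1h4b fell by 0.36 (adjusted p 0.035), from 3, 1 and 1 reads in the controls to 0 in all 3 libraries, and no gene rose.

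ClpX cKO and ClpP cKO did not differ in a called clustered histone gene. The count was 0 in either direction among the 17 by limma and by limma voom on recovered reads, where 0.0463% of all genes tested rose and 0.0579% fell, and 4 of the 17 (23.5%) had an unadjusted p under 0.05, as did 27.8% of all genes tested. The closest were Hist2h2be (-0.33 ± 0.08, SE; adjusted p 0.081), Hist3h2a (-0.46 ± 0.16; 0.12), Hist1h1c (0.29 ± 0.11; 0.14) and Hist1h3a (-0.62 ± 0.24; 0.14). Without the first ClpX cKO library, Hist2h2be was called lower in ClpX cKO (-0.36, adjusted p 0.018).

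Summed over the 67 genes, FPKM was 131, 137 and 118 in control libraries, 104, 91.6 and 94.7 in ClpP cKO, and 93.1, 76.3 and 89.1 in ClpX cKO. These sums do not overlap between controls and knockouts, but the size of the gap depends on the scale. The denominator implied by the deposited values was 0.919 ± 0.028 times a library's own total of gene reads for controls, 1.05 ± 0.0037 times for ClpP cKO and 1.07 ± 0.017 times for ClpX cKO (SD, n = 3 each). On the libraries' own totals the group means of the sum became 118 ± 5.75, 101 ± 6.11 and 92.5 ± 8.44, that is 0.854 and 0.783 of control against 0.750 and 0.669 as deposited. As a share of a library's gene reads, without regard to length, the 67 genes took 0.0111% to 0.0118% in the controls, 0.0108% to 0.0114% in ClpP cKO, which overlapped them, and 0.00949% to 0.0104% in ClpX cKO, which did not; the means were 0.965 and 0.872 of control. Scaling by own totals moved the median log2 change of all genes to 0.16 in ClpP cKO and 0.18 in ClpX cKO. As deposited it was 0.015 and -0.0008.

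By class, the summed FPKM of H2B genes was 64.6 to 67.9 in control libraries, 46.7 to 57.4 in ClpP cKO and 37.5 to 49.3 in ClpX cKO. The H3 sums were 10.5 to 16.99, 5.67 to 9.76 and 4.77 to 6.51, and the H4 sums 21.7 to 30.9, 14.3 to 20.2 and 12.7 to 16.5, in the same order. In each of these 3 classes no knockout library reached a control on the deposited scale. On the libraries' own totals this held for ClpX cKO, while ClpP cKO overlapped the controls in all 3 classes, at 48.9 to 59.7 against 58.0 to 64.5 for H2B, 5.94 to 10.2 against 9.94 to 15.2 for H3, and 14.9 to 21.2 against 20.6 to 27.7 for H4. The H2A sums overlapped, at 10.5 to 17.2, 9.21 to 14.1 and 9.11 to 11.9. The H1 sums ran the other way, at 7.24 to 9.21, 8.50 to 11.0 and 10.3 to 12.5, with ClpX cKO above the controls and ClpP cKO overlapping both. On own totals the H1 sums of ClpP cKO also lay above the controls, at 8.89 to 11.5 against 6.89 to 8.37. Hist1h1c averaged 4.62, 6.78 and 8.49 FPKM within H1 means of 8.06, 10.1 and 11.3, and the other H1 genes tested did not pass. These sums are descriptions, without a test.

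**Figure D5:**
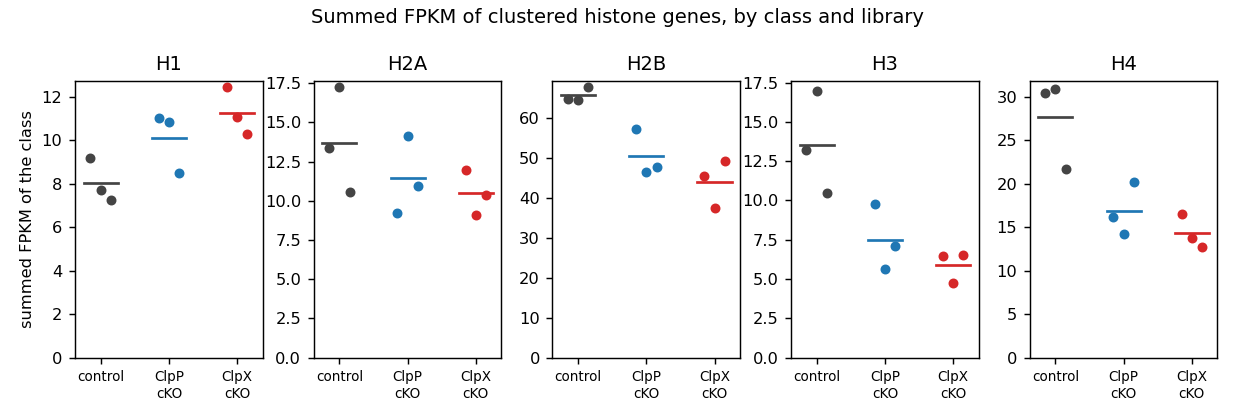
Summed FPKM of the clustered histone genes of each class in each library, by group; points are libraries, lines group means, and each panel has its own axis from 0. On this deposited scale H2B, H3 and H4 sums are lower in all knockout libraries than in the controls (with own totals ClpP cKO overlaps them), H2A sums overlap, and the H1 sums of ClpX cKO lie above those of the controls. The sums include the called genes Hist1h2bp, Hist2h2be, Hist1h3a, Hist1h4a and Hist1h1c.

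Genes that make or process histone mRNA moved in both directions. Of 22 such genes 6 rose and 2 fell in ClpP cKO (median 0.14), and 8 rose and 3 fell in ClpX cKO (median 0.16). Over all genes tested, 20.7% rose and 24.0% fell in ClpP cKO, and 32.1% rose and 33.5% fell in ClpX cKO. Casp8ap2 (FLASH), which acts with NPAT at the histone locus, was at 4.56 to 5.37 FPKM in control libraries, 7.38 to 7.87 in ClpP cKO and 6.92 to 8.04 in ClpX cKO (log2 changes 0.51 ± 0.08 and 0.50 ± 0.08, SE; adjusted p 0.0086 and 0.0011). Npat itself rose (log2 changes 0.18 and 0.28), and Slbp, whose product binds the stem-loop, rose by 0.18 in ClpX cKO (adjusted p 0.040), with a change of 0.19 in ClpP cKO that missed the threshold (adjusted p 0.05005). Sympk, a scaffold of the cleavage complex, fell in both (log2 changes -0.26 and -0.33), as did Ncbp1, a subunit of the cap-binding complex (-0.32 and -0.50).

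Of 24 DNA replication genes tested 10 rose and 3 fell in ClpP cKO (median 0.21), and 10 rose and 4 fell in ClpX cKO (median 0.14), beside the rise of the spermatogonial markers. For all genes tested, the shares that rose and fell were 20.7% and 24.0% in ClpP cKO, and 32.1% and 33.5% in ClpX cKO. Cdt1, a licensing factor, was at 1.93 to 2.44 FPKM in control libraries, 3.34 to 3.78 in ClpP cKO and 4.31 to 5.26 in ClpX cKO, and rose by 0.50 and 0.81. Lig1, the replicative ligase, rose by 0.55 and 0.68, and Mcm4, of the replicative helicase, by 0.45 and 0.76. Mcm7 of the same helicase fell in both (-0.30 and -0.39).

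Among 15 histone genes outside the clusters 3 rose and 5 fell in ClpP cKO, and 7 rose and 5 fell in ClpX cKO. Beside them, 20.7% of all genes tested rose and 24.0% fell in ClpP cKO, and 32.1% and 33.5% in ClpX cKO. The spermatid forms fell beside the spermatid markers: H1fnt, a spermatid linker histone gene, was at 188 to 369 FPKM in control libraries, 119 to 157 in ClpP cKO and 49.5 to 77.6 in ClpX cKO (log2 changes -1.06 and -2.31), and Hils1, another, fell in both (-0.92 and -1.87). H1f0, the linker histone gene of cells that do not divide, rose by 0.59 and 0.98, and H2afx, whose product marks DNA breaks, by 0.65 and 0.80. The clustered testis linker gene Hist1h1t, measured at 2.49 FPKM at most, was far below these levels of H1fnt. Hist1h1t carries the stem-loop and how mRNA was selected is not in the labels, so the measured levels may not compare like with like.

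Of 18 genes for histone chaperones and histone removal 2 rose and 6 fell in ClpP cKO, and 3 rose and 8 fell in ClpX cKO. At large, 20.7% of genes tested rose and 24.0% fell in ClpP cKO, and 32.1% and 33.5% in ClpX cKO. Psme4, the proteasome activator that takes part in histone removal in spermatids, fell in both (-0.67 and -0.96), from 108 to 119 FPKM in the controls to 65.0 to 75.8 and 49.9 to 72.2. Cdyl, a chromodomain protein of spermatids, fell in both (-0.72 and -1.41), and so did Chd5, a remodeller needed for histone exchange (-0.75 and -1.39). Nap1l1, a chaperone of H2A and H2B, rose by 0.30 and 0.32. No gene of these 4 lists was called between ClpX cKO and ClpP cKO.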

How the data were processed

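RNA sequencing of 9 libraries (3 control, 3 ClpP cKO, 3 ClpX cKO) was deposited as 1 table. The authors computed FPKM per gene against GRCm38 (mm10), per the submitters' processing notes. The deposited gene length, in bases, is a column of another unit per the file headers. The aligner, the counter and the treatment of reads with several matches are not given in the sources used here. FPKM times length gave whole reads for 100% of values (tolerance 0.01 of a step).

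The 17266 genes whose mean reached an FPKM of 1 were fitted together as log2(FPKM + 1), 3 group means over 9 libraries, by limma 3.58.1 (R 4.3.3), two-sided, with Benjamini-Hochberg adjustment over all genes tested. The members and lists were chosen with earlier results of these data known. Always named were the testis forms, the 10 genes with the highest mean and up to 8 called genes per comparison, and up to 3 called genes of each list; other list genes were chosen after their values were seen. Sequences were searched in GENCODE M21 and RefSeq. Alternatives were another pseudocount, other filters and scalings, voom, a replicate block, fits of 6 libraries and leaving out libraries. Fits were tested on simulated data.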

Additional observations from a re-analysis of the deposited data

Results flagged for a closer look

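Hist1h2al lies outside the 67 genes, because the table gives it as a processed pseudogene (chr13:51202727-51203065, minus strand, 339 bases, GRCm38). It was at 89.5 FPKM in the second ClpP cKO library, and at 80.7, 71.96 and 10.03 in ClpX cKO libraries 1, 2 and 3. The controls were at 1.85, 2.70 and 0.866, and the other ClpP cKO libraries at 1.196 and 0.533. What marked it was signal outside the genes examined, above the level of the controls in 4 of 6 knockout libraries. The values rest on 472, 461, 427 and 58 reads against 4 to 14 in the controls, and their exact 95% Poisson intervals, which cover counting error only, were 81.6 to 97.9, 73.5 to 88.4, 65.3 to 79.1 and 7.61 to 13.0 FPKM. In limma the change was 3.90 ± 1.45 (SE) in ClpX cKO (adjusted p 0.040) and 1.32 ± 1.45 in ClpP cKO (adjusted p 0.47), where 1 library of 3 was high. Of its 75-base stretches 45.7% also occur in other genes' transcripts, and it overlaps the annotated gene Gm44341.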

How the results depend on the processing

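Of the 9 calls against control, 6 were kept under all 19 alternatives, namely Hist1h1c in both comparisons and the other 4 ClpX cKO calls, and no value of a named gene that was called changed sign. The number of genes that rose in ClpP cKO was 2 in the fit of 6 libraries, with Hist1h2bc added. The number that fell in ClpP cKO ranged from 1 to 3 on leaving out 1 library. Without both the third control and the first ClpX cKO library, Hist1h2aa was added to the genes that fell. This held in ClpP cKO (-0.75, adjusted p 0.017) and in ClpX cKO (-1.11, adjusted p 0.0030). In ClpX cKO 2 rose when values were scaled by own totals (Hist1h4i added) and when the third control and the first ClpX cKO library were left out together (Hist1h2bc added), and 1 to 2 rose on leaving out 1 library; 4 to 5 fell there. Between the knockouts, 1 fell without those 2 libraries, and 0 to 1 on leaving out 1. Hist1h4c was called lower in ClpX cKO without the third ClpX cKO library (-0.73). The cause of these shifts was not tested. With the replicate number as a block the counts were 1 that rose and 3 that fell in ClpP cKO, 1 and 4 in ClpX cKO, and 0 and 0 between the knockouts. Deviations of same-numbered libraries correlated at between -0.0702 and 0.234, and those of differently numbered libraries at between -0.237 and 0.113. The highest values were between same-numbered libraries. The labels give no pairing, and the main fit took the samples as unpaired. Scaling by own totals moved the called Hist2h2be change in ClpX cKO from -0.49 to -0.28. The control whose removal makes Hist1h2aa called held 3 reads of it; the part of depth in that was not tested.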
